A study of Mus musculus with 3 samples.

Results

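Granzymes and perforin, the proteins that cytotoxic lymphocytes store in granules and release onto a bound target cell, were followed through 8 of the 33696 measured genes. The genes were taken by name: the granzyme genes Gzma, Gzmb, Gzmc, Gzmd, Gzme, Gzmf and Gzmk, and the perforin gene Prf1. Their RNA was counted as unique molecular identifiers (UMIs, 1 for each captured RNA molecule) in 5 kinds of lymphocytes within 3 single-cell libraries. Each library held CD45+ live cells sorted on day 19 from subcutaneous tumors of KP1, a mouse line of small-cell lung cancer. The hosts were wild-type B6129SF1/J mice, a hybrid F1 strain, each injected with 500000 tumor cells.

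The 3 groups had 1 library each and differed in the agent given. The mono-IL-10 group received an engineered monomeric IL-10. The IL-10/2-Trikine group, called Trikine from here on, received a fusion of that monomer with a binder of the IL-2 receptor. The combination group received Trikine together with an antibody that blocks PD-1. Cytokines were dosed at 3 µg on alternate days, first on day 7 and last on day 19, and the antibody at 200 µg on days 7, 11, 15 and 19. One sentence of the labels can be read as antibody for all animals. The combination is the only group whose title or treatment label names it. There was no untreated library, and how many mice contributed to each library is not stated, so a level could not be set against untreated tumors and a ratio between libraries has no replicate check. All intervals below are 95% intervals that cover counting error only.

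Perforin opens pores that let granzymes, a family of serine proteases, enter the target cell. Granzyme B cuts after aspartate and sets off caspases, while granzymes A and K cut after basic residues and have slower or non-lytic actions, including effects on inflammation. Granzymes C to F are encoded next to granzyme B in a cluster that expanded in rodents. IL-2 acts through STAT5 and IL-10 mainly through STAT3, and both cytokines are known to raise granzyme expression in T cells. Regulatory T cells, marked by Foxp3, are known to carry granzyme B as well.

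The sequences upstream of the 6 members that share a motif are shown because they place a common word in the genes whose levels are compared below. All windows come from RefSeq on build GRCm38.p6, end at the annotated start and cover the 200 bases before it, read 5′ to 3′ on the minus strand, on which these 6 genes lie. Capitals mark AACCACA, the core recognized by Runx factors, which in Gzmb stands as its reverse complement TGTGGTT.
Gzma at chr13:113100982-113101181: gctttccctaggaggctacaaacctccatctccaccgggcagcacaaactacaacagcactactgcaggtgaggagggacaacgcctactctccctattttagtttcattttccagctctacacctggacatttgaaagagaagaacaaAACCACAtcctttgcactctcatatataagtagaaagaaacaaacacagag
Gzmb at chr14:56262335-56262534: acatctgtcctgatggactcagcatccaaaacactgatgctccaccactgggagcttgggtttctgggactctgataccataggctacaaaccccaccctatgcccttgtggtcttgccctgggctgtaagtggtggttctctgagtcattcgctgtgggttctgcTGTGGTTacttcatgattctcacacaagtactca
Gzmc at chr14:56234658-56234857: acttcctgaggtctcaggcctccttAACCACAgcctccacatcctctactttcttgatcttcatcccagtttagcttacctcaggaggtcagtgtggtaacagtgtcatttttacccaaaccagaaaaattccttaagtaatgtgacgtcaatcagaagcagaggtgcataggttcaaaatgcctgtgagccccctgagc
Gzmd at chr14:56132594-56132793: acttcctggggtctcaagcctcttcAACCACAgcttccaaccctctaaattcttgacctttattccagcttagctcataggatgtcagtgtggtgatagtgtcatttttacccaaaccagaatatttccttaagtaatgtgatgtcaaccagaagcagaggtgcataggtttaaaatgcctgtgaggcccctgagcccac
Gzme at chr14:56120626-56120825: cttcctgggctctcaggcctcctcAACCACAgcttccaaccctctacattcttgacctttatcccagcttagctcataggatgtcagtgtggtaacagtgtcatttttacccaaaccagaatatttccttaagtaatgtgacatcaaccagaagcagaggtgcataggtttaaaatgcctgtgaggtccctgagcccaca
Gzmf at chr14:56211408-56211607: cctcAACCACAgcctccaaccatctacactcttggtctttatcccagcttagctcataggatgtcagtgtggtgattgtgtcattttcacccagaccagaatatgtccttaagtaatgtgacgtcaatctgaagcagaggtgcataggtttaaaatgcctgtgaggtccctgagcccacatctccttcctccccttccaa

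All 8 members were matched in the RefSeq table. Within 250 bases before the start, AACCACA was present on either strand in 6 of 8 members and in 4.40% of all 32851 promoters of that length. It lay 51 bases before the start in Gzma, 34 in Gzmb, 175 in Gzmc and in Gzmd, 176 in Gzme and 196 in Gzmf. For Gzmb, unlike the others with the motif, no transcript start of a second annotation, GENCODE, was found around the RefSeq start. Its distance is therefore less certain. The motif was picked after the sequences had been read, and Gzmc to Gzmf are copies of one another, so these matches are not independent. A STAT motif, TTCNNNGAA, searched on both strands, was found in 0 of the 8 windows and in 7.02% of all promoters, which says only that these letters are missing from this window.

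The starts of Gzmb to Gzmf span 142 kb of chromosome 14. The coding sequences of Gzmd and Gzme were 93.5% identical, those of Gzme and Gzmf 85.4% and those of Gzmd and Gzmf 83.9%, while Gzmb and Gzmc shared 76.6%. The libraries were made with a 3′ kit, so the last bases of a transcript carry most reads. Over the last 300 bases Gzmd and Gzme were 83.0% identical, Gzmd and Gzmf 84.7% and Gzme and Gzmf 83.3%. Whether UMIs of these 3 genes were split among them in alignment was not examined, so their separate levels are uncertain.

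The libraries held 22235 mono-IL-10 cells, 22707 Trikine cells and 26967 combination cells after filters, with a median of 4273 to 5562 UMIs per cell. Although the labels call the cells T cells, only 9440, 14646 and 15676 of them, in that order, lay in clusters with T or NK cell markers. Between 137 and 180 cell barcodes were shared by any 2 libraries, at most 0.793% of a library. Barcodes with 100 UMIs or fewer, taken as free RNA, held Gzma at 1217 counts per 1000000 UMIs (CPM) for mono-IL-10, 5098 for Trikine and 5359 for the combination, and the corresponding Gzmb values were 1260, 2688 and 2898 CPM.

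Lymphocytes were sorted into 5 gates by UMIs of a few defining genes, none of them a member. NK cells had no UMI of the Cd3 genes and at least 1 of the NK receptor genes Ncr1 and Klrb1c, and the gate held 599, 1031 and 1366 cells in the mono-IL-10, Trikine and combination libraries. NK-receptor T cells had at least 3 UMIs of the Cd3 genes together with 1 of those receptors and no Foxp3, and numbered 305, 1655 and 959. The CD8 gate (Cd3 and Cd8 UMIs, no Cd4) held 4248, 4466 and 4262 cells, and the CD4 gate (Cd3 and Cd4 UMIs, no Cd8) held 1524, 2039 and 3280. The Foxp3 gate (Cd3 and Foxp3 UMIs, no Cd8) held 195, 621 and 622 cells. The CD8, CD4 and Foxp3 gates were also required to have no NK receptor UMI, and the CD8 and CD4 gates no Foxp3 UMI. Together the gates took 66.9% to 72.8% of lymphoid cells.

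The gates were checked on genes that did not define them. Trac, the T cell receptor alpha constant gene, stood at 30.01 to 39.8 CPM in the NK gate and at 789 to 1663 CPM in the T cell gates. Trbc2, a beta chain constant gene of the same receptor, was at 228 to 260 CPM in the NK gate and at 1268 to 1867 CPM in the T cell gates, so NK cells were not free of it. Ikzf2, a gene of regulatory T cells, reached 1903 to 2264 CPM in the Foxp3 gate and up to 1060 CPM in the NK-receptor T gate. Cd40lg, the CD40 ligand of helper T cells, was at 34.6 to 83.9 CPM in the CD4 gate and at 0.700 to 1.90 CPM in the CD8 gate, and no further gene was used to check the CD8 name. Cells with a UMI of Mki67 or Top2a, genes of dividing cells, made up 43.6%, 62.9% and 41.7% of the NK-receptor T gate and 38.3%, 51.8% and 36.0% of the CD8 gate, so the Trikine library held the highest share of cycling cells in both. The part of this in the member levels was not tested beyond the split by these genes given below.

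Across the 40 pairs of a member and a gate, a pair was counted when both libraries together held at least 20 UMIs, and it was called when the CPM ratio passed 2-fold. From mono-IL-10 to Trikine, 17 pairs were called, 12 higher in Trikine and 5 lower. From Trikine to the combination, 10 were called, 5 in each direction. The Trikine library enters both comparisons, so they are not independent. Scaling by trimmed means (TMM) instead of total UMIs moved every Trikine over mono-IL-10 log2 ratio of a gate up by 0.13 to 0.25 and shifted the combination over Trikine log2 ratios by between -0.09 and -0.00083. Directions that turn with it are named with the gene.

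For Trikine over mono-IL-10, 3 of 6 counted members were called in the NK gate, where 7.84% of all counted genes were called. The NK-receptor T gate had 3 of 7 members called against 12.4% of genes, and the CD8 gate 2 of 8 against 10.3%. In the CD4 gate 6 of 8 members were called against 15.5% of genes, and in the Foxp3 gate 3 of 6 against 5.73%. The members' median log2 ratio was 0.88, -0.08, 0.36, 0.24 and 1.31 in these gates, in that order, and the median over all genes lay between -0.17 and -0.08.

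For the combination over Trikine, 1 of 6 counted members was called in the NK gate against 3.46% of genes, and 2 of 7 in the NK-receptor T gate against 4.55%. The CD8 gate had 1 of 8 members called against 5.46% of genes, the CD4 gate 3 of 8 against 4.61%, and the Foxp3 gate 3 of 7 against 2.21%. The members' median log2 ratio was -0.02, -0.52, 0.18, 0.68 and -0.41, and the median over all genes lay between -0.01 and 0.05. Most of these calls belong to Gzmc, Gzmd, Gzme and Gzmf, which had few UMIs, and are taken up with those genes.

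**Figure D1:**
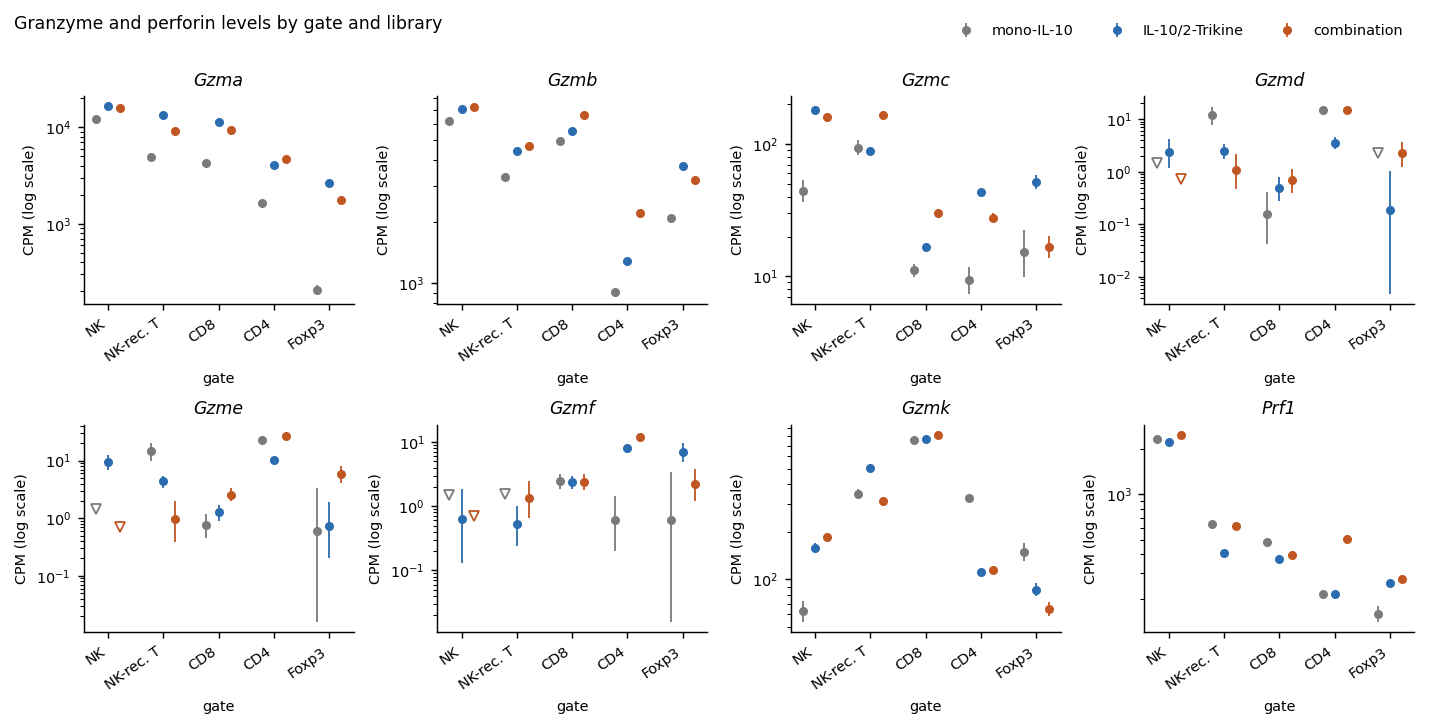
Level of each member in the 5 gates of the 3 libraries, in CPM on a log axis that differs between panels, with points for the level, bars for its 95% counting interval and open triangles for the upper limit where a gate held 0 UMIs. Gzma in the Foxp3 gate is the widest gap between libraries among the abundant members, from 209 CPM in mono-IL-10 to 2627 CPM in Trikine.

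Gzma, which encodes a granzyme with trypsin-like specificity, was higher in Trikine than in mono-IL-10 in all 5 gates. In the NK gate its level was 12361 CPM in mono-IL-10, 16649 in Trikine and 15858 in the combination, a Trikine over mono-IL-10 ratio of 1.35 (1.33 to 1.36). That ratio passed 2-fold with lymphoid cells chosen by marker sum, so its size depends on how they are chosen. In the NK-receptor T gate Gzma stood at 4893, 13349.7 and 9281 CPM, with a ratio of 2.73 (2.68 to 2.78). The makeup of this gate differed between libraries. A sub-cluster led by the NK receptor gene Klra6 took 30, 976 and 244 of its cells, and one led by Zbtb16, a factor of innate-like T cells, took 78, 179 and 148. The Gzma ratio was 1.95 (1.87 to 2.03) among the Klra6 cells, 2.94 (2.53 to 3.42) among the Zbtb16 cells and 1.85 (1.81 to 1.90) in the rest, a split made after the data had been seen, so it stayed above 1 in each but passed 2-fold only in the Zbtb16 cells. NK cells thus carried the highest Gzma level in every library, and the NK-receptor T cells came closest to it in the Trikine library.

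The CD8 gate held Gzma at 4238, 11318 and 9334 CPM, and the Trikine over mono-IL-10 ratio was 2.67 (2.65 to 2.69). The CD4 gate held it at 1661, 4060.4 and 4748 CPM, with a ratio of 2.44 (2.40 to 2.49). Neither gate reached the NK level in any library. NK markers, a list of 13 genes, summed to 1362, 1830 and 1693 CPM in the CD8 gate, with 11 of them detected and Ncr1 and Klrb1c at 0 as the gate requires, and their part in its Gzma level was not tested. In the Foxp3 gate the levels were 209, 2627 and 1750.1 CPM, from 342, 14150 and 11001 UMIs, and the ratio was 12.6 (11.3 to 14.0). The order of gates by Gzma was NK, NK-receptor T, CD8, CD4 and Foxp3 in mono-IL-10 and Trikine, and the CD8 and NK-receptor T intervals overlapped in the combination. The highest gate exceeded the lowest by 59.1-fold in mono-IL-10, 6.34-fold in Trikine and 9.06-fold in the combination.

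The CD4 value has to be read beside cells that should lack the gene. Gzma stood at 566, 3008 and 1176 CPM in B-cell-like cells and at 625, 2537 and 1099 CPM in macrophage-like cells, which were thus also higher in Trikine than in mono-IL-10, and free RNA differed more between these libraries than CD4 cells did. Some macrophage-like barcodes also held T cell RNA. Those with UMIs of both the macrophage gene C1qa and the T cell gene Cd3e numbered 1563, 907 and 1243. A macrophage-like cluster of 3099 cells had a Cd3e UMI in 84.9% of them. Doublets were left in, so macrophage-like values here and below are an imperfect background. The share of thinned cells with a Gzma UMI was 13.9%, 37.1% and 43.4% in the CD4 gate, 9.52%, 17.0% and 27.0% in B-cell-like cells and 8.14%, 21.9% and 19.3% in macrophage-like cells. The free RNA estimated from the C1q genes of macrophages made up 1.60%, 2.89% and 2.80% of the CD4 level. With a sub-cluster led by Igfbp4 and Dapl1 set aside, which held 174 mono-IL-10 but 3 Trikine and 3 combination cells of the gate, the CD4 ratio was 2.26 (2.22 to 2.30).

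Between Trikine and the combination no Gzma ratio passed 2-fold. The combination over Trikine ratio was 0.952 in the NK gate, 0.695 in the NK-receptor T gate, 0.825 in the CD8 gate, 1.17 in the CD4 gate and 0.666 in the Foxp3 gate. The NK-receptor T ratio depends on the makeup of the gate. It was 0.672 among the Klra6 cells, 1.61 (1.498 to 1.73) among the Zbtb16 cells and 0.978 in the rest. No direction can be given for that gate. The combination was thus below Trikine in the NK, CD8 and Foxp3 gates and above it in the CD4 gate.

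The Foxp3 value was examined further because its Gzma level was low. A few cells held most of it: the top 10% of Foxp3 cells carried 90.1%, 82.7% and 85.2% of the Gzma UMIs in the mono-IL-10, Trikine and combination libraries. After each cell was thinned to 1000 UMIs, 8.85%, 32.1% and 28.7% of Foxp3 cells had a Gzma UMI, against 26.2%, 62.6% and 64.3% before thinning. Neutrophil-like cells, which should lack the gene, showed 4.80%, 17.8% and 27.5%. The combination share in Foxp3 cells lay within the neutrophil interval of 17.5% to 39.6%. The mono-IL-10 interval of 5.24% to 13.8% overlapped the neutrophil interval of 2.58% to 8.06%, and B-cell-like cells of that library stood at 9.52%. Both shares read as background against neutrophil-like cells, whereas the Trikine interval, 28.4% to 35.9%, lay above the neutrophil interval of 14.3% to 21.7%. The combination neutrophil value rests on 69 cells. Against the 6968 macrophage-like cells of that library, at 19.3% (18.4% to 20.3%), the Foxp3 interval of 25.2% to 32.5% was higher. The mono-IL-10 share is at background in the library that forms the denominator of the ratio of 12.6. The median depth was 5861 to 7204.5 UMIs in Foxp3 cells and 1317 to 2031 in neutrophil-like cells.

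By level, Foxp3 cells were in no library above all the cells that should lack Gzma. Neutrophil-like cells held 397, 2618 and 2070 CPM, and B-cell-like and macrophage-like cells exceeded the Foxp3 level in the mono-IL-10 library. The Trikine neutrophil interval of 2539 to 2698 CPM took in the Foxp3 level of 2627, which lay below B-cell-like and above macrophage-like cells. In the combination the Foxp3 level was above B-cell-like and macrophage-like cells but below neutrophil-like cells.

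With a stricter count of at least 3 Gzma UMIs per thinned cell, the shares were 3.13%, 15.6% and 12.3% in Foxp3 cells and 1.11%, 9.57% and 4.35% in neutrophil-like cells. Free RNA estimated from the C1q genes accounted for 11.7%, 4.89% and 6.62% of the Foxp3 Gzma level. Per C1q UMI, Foxp3 cells held 8.56, 20.4 and 15.1 times as much Gzma as free RNA did, and neutrophil-like cells 0.780, 0.677 and 0.724 times. With the estimated free RNA subtracted, the Trikine over mono-IL-10 ratio was 13.6.

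In the Foxp3 gate markers of NK cells, like Gzma, were higher in Trikine than in mono-IL-10. They were highest in the combination, where Gzma was below Trikine, and their part in the Gzma level was not tested. The list of 13 NK markers summed to 160, 433 and 478 CPM in the Foxp3 gate, with 9, 11 and 11 of its genes detected, against 9345 to 11172 CPM in the NK gate. Ncr1 and Klrb1c were at 0, which the gate requires. Macrophage markers summed to 276, 257 and 209 CPM. When Foxp3 cells were taken as a sub-cluster instead of a gate, the Gzma ratio was 2.92, and 23.8% of the cells in that sub-cluster had a Cd8a UMI. Under the other settings tried the ratio lay between 10.3 and 15.3.

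**Figure D2:**
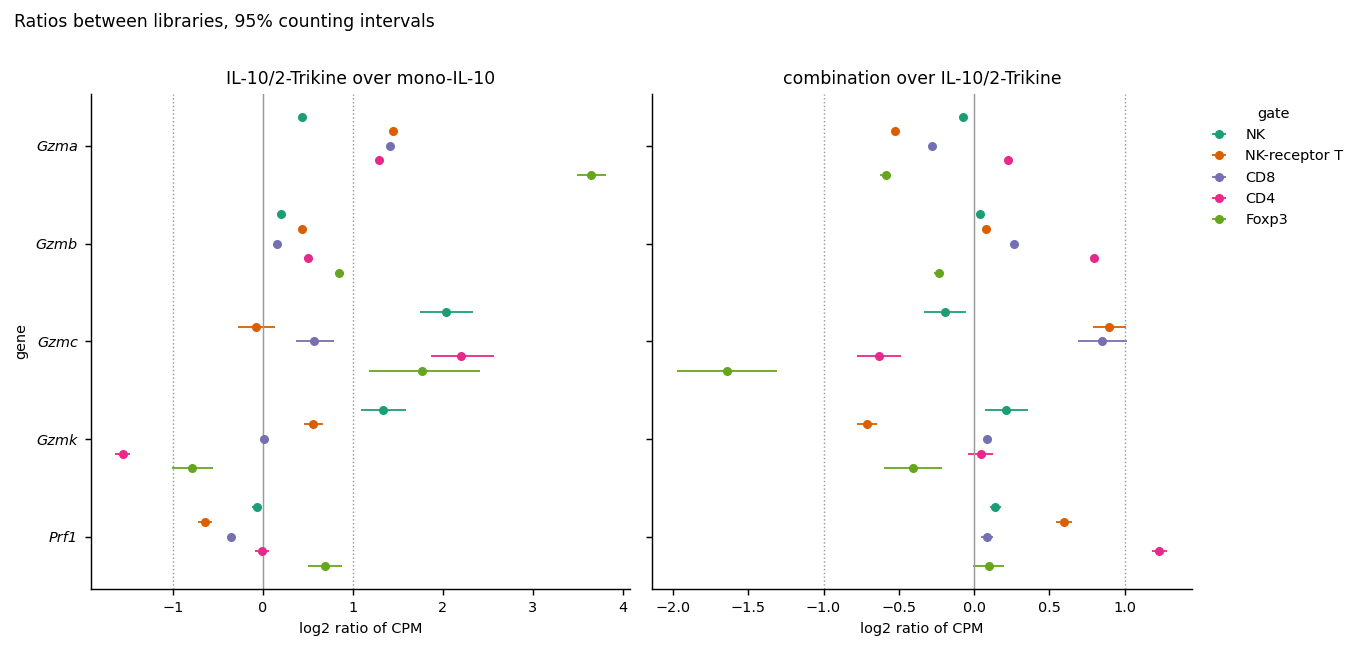
Ratios of CPM between libraries on a log2 axis for the 5 members with the most UMIs, with a color for each gate, bars for 95% counting intervals and dotted lines at 2-fold. The x axes differ between the panels. Gzma sits to the right of 0 in every gate for Trikine over mono-IL-10, and Prf1 in the CD4 gate passes 2-fold for the combination over Trikine.

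Gzmb, which encodes the caspase-activating granzyme B, differed far less between libraries, and no ratio passed 2-fold. Its level in the NK gate was 6178 CPM in mono-IL-10, 7098 in Trikine and 7282 in the combination. The NK-receptor T gate held 3295, 4444 and 4705 CPM, and the CD8 gate 4976, 5539 and 6661 CPM. The Trikine over mono-IL-10 ratios were 1.15 (1.13 to 1.17), 1.35 (1.32 to 1.38) and 1.11 (1.11 to 1.12) in these gates. The order of the gates by Gzmb was NK, CD8, NK-receptor T, Foxp3 and CD4 in all 3 libraries, with no overlapping neighbors.

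CD4 cells held Gzmb at 905, 1277 and 2214 CPM, and the combination over Trikine ratio of 1.73 (1.71 to 1.76) was the highest of the 5 gates for Gzmb. Foxp3 cells held it at 2082, 3750.1 and 3185 CPM, a Trikine over mono-IL-10 ratio of 1.80 (1.74 to 1.87) and a combination over Trikine ratio of 0.849 (0.833 to 0.866). Foxp3 cells exceeded CD4 cells in Gzmb in every library, the reverse of the order for Gzma. The remaining combination over Trikine ratios were 1.03 in the NK gate, 1.06 in the NK-receptor T gate and 1.20 in the CD8 gate. The direction in the NK-receptor T gate was not stable, since the ratio was 0.998 with scaling by trimmed means.

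The share of thinned cells with a Gzmb UMI was compared with cells that should lack the gene. In the Foxp3 gate it was 52.1%, 78.1% and 73.1%, against 10.3%, 15.0% and 18.8% in neutrophil-like cells. In the CD8 gate it was 62.3%, 78.3% and 80.5%, and in the CD4 gate 20.3%, 38.8% and 47.6%. The mono-IL-10 interval of the CD4 gate, 18.3% to 22.4%, lay above the 12.3% to 16.4% of B-cell-like cells. By level, however, B-cell-like cells held Gzmb at 918, 1395 and 916 CPM, so CD4 cells were not above them in mono-IL-10 and Trikine. Before thinning, the Foxp3 shares were 67.2%, 92.3% and 93.1%, the CD8 shares 75.4%, 88.7% and 90.2%, and the CD4 shares 36.7%, 63.7% and 71.7%. The mono-IL-10 library had the lowest Gzmb share in each of these gates. Cells with no UMI of Mki67 and Top2a showed a Trikine over mono-IL-10 ratio of 2.77 in the CD4 gate and 2.28 in the Foxp3 gate, both past 2-fold. The whole gates were not past it by their summed UMIs, and were at 2.05 and 2.16 by the mean of each cell's own CPM.

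**Figure D3:**
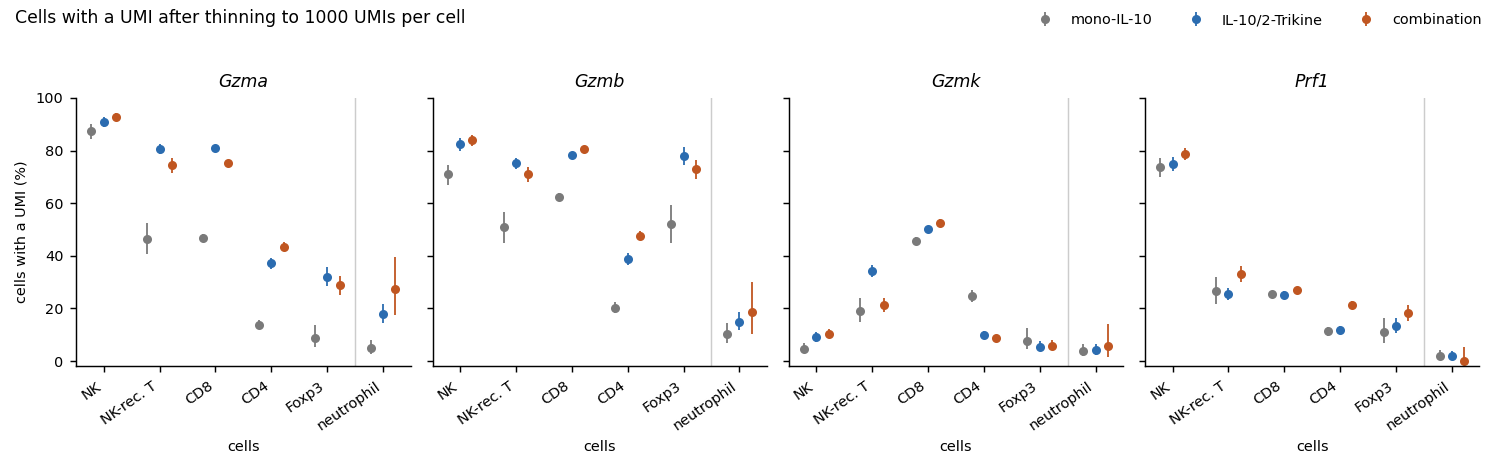
Share of cells with at least 1 UMI of the gene after each cell was thinned to 1000 UMIs, with bars for exact 95% intervals, for the 5 gates and for neutrophil-like cells as background to the right of the line. Gzma in Foxp3 cells overlaps the neutrophil share in the mono-IL-10 and combination libraries, while Gzmb in Foxp3 cells lies far above it in all 3.

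Gzmc, next to Gzmb in the cluster, was a low gene carried by a minority of cells. In the NK gate it stood at 44.4 CPM in mono-IL-10, 182 in Trikine and 160 in the combination, a Trikine over mono-IL-10 ratio of 4.10 (3.36 to 5.04). Over the 13 alternative settings that ratio lay between 2.87 and 8.36. CD4 cells held Gzmc at 9.32, 43.1 and 27.8 CPM, a ratio of 4.62 (3.65 to 5.92) that was 2.29 in cells without Mki67 and Top2a UMIs and 7.13 without the highest cell of each library. In both gates the mono-IL-10 library was the lowest. The share of cells with a UMI was 4.84%, 8.44% and 7.10% of NK cells and 1.12%, 7.01% and 7.13% of CD4 cells, without thinning. B-cell-like cells, which should lack the gene, showed 0.570%, 6.43% and 3.31%, and macrophage-like cells 1.252%, 2.54% and 1.27%, at median depths of 2997.5 to 4655 and 5639 to 7420 UMIs. The Trikine level in CD4 cells lay within the B-cell-like interval of 35.9 to 57.0 CPM and is not separated from it, while the NK levels in Trikine and the combination were above those of B-cell-like cells (45.6 and 5.45 CPM) and macrophage-like cells (34.4 and 7.24 CPM). Free RNA held Gzmc at 28.0, 30.1 and 64.2 CPM.

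In the NK-receptor T gate Gzmc was at 94.2, 89.3 and 167 CPM, and the combination over Trikine ratio was 1.87 (1.73 to 2.01). It was 0.298 in cells without Mki67 and Top2a UMIs, 0.803 with sub-clusters and 3.77 with 2 UMIs of each defining gene. The Trikine over mono-IL-10 ratio there was 0.948, but 1 mono-IL-10 cell held 117 of the 221 UMIs, and the ratio was 1.66 (1.36 to 2.05) without the highest cell of each library, 1.13 with scaling by trimmed means and 0.424 with 2 UMIs of each defining gene. No direction can be given for Gzmc in this gate. In the CD8 gate it was at 11.1, 16.6 and 29.9 CPM, but 1 cell of the combination library held 254 of the 683 UMIs. Foxp3 cells held it at 15.3, 52.0 and 16.7 CPM, and 1 Trikine cell held 175 of 280 UMIs. The combination over Trikine ratio of 0.321 was 0.729 without the highest cell of each library. The Trikine over mono-IL-10 ratio of 3.40 was 4.58 (2.15 to 11.7) without them, from 105 and 7 UMIs, and 1.31 without the 10% highest doublet scores.

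Gzmd, Gzme and Gzmf were found in a handful of cells. Gzmd in the CD4 gate was at 15.1, 3.55 and 15.3 CPM, from 123, 66 and 393 UMIs in 4, 11 and 21 cells. Gzme was at 23.2, 10.2 and 26.8 CPM, from 189, 189 and 689 UMIs in 6, 28 and 61 cells. Both were lower in Trikine than in either other library, although more cells of the Trikine library than of the mono-IL-10 library held a UMI. The combination over Trikine ratio of Gzme, 2.63, was 15.7 in cells without Mki67 and Top2a UMIs. The highest single cell held 66.7% of the Gzmd UMIs in mono-IL-10, 30.3% in Trikine and 45.8% in the combination.

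Gzmf in the CD4 gate followed another order, at 0.61, 8.02 and 11.8 CPM, from 5, 149 and 304 UMIs in 3, 31 and 72 cells. The Trikine over mono-IL-10 ratio was 13.1 (5.48 to 40.9). Gzmf in the CD8 gate was at 2.45, 2.38 and 2.41 CPM, with 0.165%, 0.694% and 0.446% of cells holding a UMI before thinning. The Gzmf ratios in the CD8 gate, 0.969 and 1.01, changed side with either other scaling. The first of them was 3.87 (2.00 to 8.19) without the highest cell of each library and 0.438 with sub-clusters, so no direction can be given.

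CD4 cells with at least 10 UMIs of Gzmd and Gzme together numbered 4 in mono-IL-10, 7 in Trikine and 13 in the combination. Of these, 4, 5 and 12 held both genes, 4, 6 and 13 held Gzmb, and 3, 6 and 13 held Prf1. Their median depth was 8028, 23631 and 13842 UMIs, deeper than the gate medians of 4028.5, 5880 and 5425. Most of these few cells thus held several members at once.

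Outside the CD4 gate the levels of the 3 genes were lower or had overlapping intervals. The exception was Gzmf in mono-IL-10, at 2.45 CPM in CD8 cells against 0.61 CPM in CD4 cells. All 28 Gzmd UMIs and all 34 Gzme UMIs of the mono-IL-10 NK-receptor T gate came from 1 cell, and the ratios of 0.207 for Gzmd and 0.301 for Gzme rest on it. Gzme in the NK gate had 44 UMIs in 5 Trikine cells and 0 in both other libraries. Against a limit of 3 counts in the library at 0, it was at least 7.77-fold higher in Trikine than in mono-IL-10 and at least 16.1-fold lower in the combination than in Trikine. With NK cells taken as a sub-cluster, 34 mono-IL-10 UMIs stood against 68 in Trikine and the ratio was 0.867, so the direction depends on how NK cells are chosen. Gzme in the CD8 gate of the combination had 57 of 59 UMIs in 1 cell, and its ratio of 2.04 to Trikine became 0.224 when the highest cell of each library was left out. In the Foxp3 gate Gzmd, Gzme and Gzmf had at most 37 UMIs in any library.

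Gzmk, the granzyme of early effector and memory cells, was highest in the CD8 gate and almost equal there between libraries. Its level in CD8 cells was 757 CPM in mono-IL-10, 766 in Trikine and 814 in the combination, with ratios of 1.01 (0.993 to 1.03) and 1.06 (1.04 to 1.08). In the NK-receptor T gate it was at 345, 508 and 311 CPM, a Trikine over mono-IL-10 ratio of 1.47 (1.37 to 1.58) and a combination over Trikine ratio of 0.612 (0.584 to 0.641). The NK-receptor T ratio over mono-IL-10 depends on the makeup of the gate, at 1.93 (1.59 to 2.36) among the Klra6 cells and 0.791 (0.724 to 0.864) in the rest. So does the combination over Trikine ratio. It was 0.584 (0.544 to 0.626) among the Klra6 cells, 1.83 (1.29 to 2.61) among the Zbtb16 cells and 0.949 (0.884 to 1.02) in the rest. No direction can be given for either.

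CD4 cells held Gzmk at 326, 111 and 114 CPM, and the Trikine over mono-IL-10 ratio was 0.339 (0.320 to 0.359). In the NK gate it was at 62.8, 159 and 184 CPM, with a ratio of 2.52 (2.12 to 3.02). That ratio was 1.83 with sub-clusters, 1.90 in cells without Mki67 and Top2a UMIs and 5.52 by marker sum. The thinned share of NK cells with a Gzmk UMI was 4.73%, 9.14% and 10.3%, and its mono-IL-10 value lay within the neutrophil interval of 1.78% to 6.68% and reads as background. Foxp3 cells held it at 149, 86.2 and 65.1 CPM, with a ratio of 0.580 (0.496 to 0.680). Among thinned CD4 cells 24.7%, 10.1% and 8.91% had a Gzmk UMI, against 3.69%, 4.10% and 5.80% of neutrophil-like cells. The combination shares of both NK and CD4 cells lay within that library's neutrophil interval, 1.60% to 14.2% from 69 cells, while macrophage-like cells there stood at 3.65% (3.22% to 4.11%). Neutrophil-like cells held Gzmk at 60.2, 120 and 116 CPM, so the CD4 level was above theirs only in mono-IL-10. Before thinning 46.3%, 29.8% and 29.0% of CD4 cells did. In the Foxp3 gate the thinned shares, 7.81%, 5.51% and 5.84%, were near that background in Trikine and the combination.

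Prf1, which encodes the pore-forming perforin, was foremost an NK gene. Its level in the NK gate was 2343 CPM in mono-IL-10, 2233 in Trikine and 2463 in the combination, and the Trikine over mono-IL-10 ratio of 0.953 turned to 1.04 with scaling by trimmed means. In the NK-receptor T gate it stood at 637, 407 and 616 CPM. The Trikine over mono-IL-10 ratio was 0.639 (0.605 to 0.677) and the combination over Trikine ratio 1.51 (1.46 to 1.57). Both ratios differed between parts of the gate. The first was 0.906 (0.747 to 1.11) among the Klra6 cells and 0.897 (0.625 to 1.301) among the Zbtb16 cells. In the rest it was 0.737 (0.692 to 0.786). For the second, these parts gave 1.04 (0.962 to 1.13), 1.33 (0.994 to 1.77) and 1.44 (1.37 to 1.51). An NK sub-cluster led by Klra8 held 20%, 13.7% and 30.03% of the gate in mono-IL-10, Trikine and the combination. Its part in these levels was not tested. The CD8 gate held 480.3, 374 and 397 CPM, with ratios of 0.779 (0.760 to 0.799) and 1.06 (1.03 to 1.09). In neither T cell gate was Prf1 higher in Trikine than in mono-IL-10, whereas Gzma was.

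CD4 cells held Prf1 at 217, 216 and 507 CPM. The combination over Trikine ratio was 2.35 (2.27 to 2.43), the only Prf1 ratio past 2-fold, while the Trikine over mono-IL-10 ratio of 0.994 turned to 1.17 with scaling by trimmed means. Under the alternatives tried, the combination over Trikine ratio was past 2-fold except with sub-clusters, where it was 1.61. A sub-cluster led by Ccl3 took 23.6%, 20.7% and 42.1% of the CD4 gate, and one led by Fscn1 took 3.02%, 28.0% and 17.2%. The part of this makeup in the Prf1 difference was not tested. Thinned CD4 cells with a Prf1 UMI made up 11.3%, 11.8% and 21.4%, against 1.85%, 2.05% and 0% of neutrophil-like cells. For the last, 0 of 69 cells allows up to 4.35% by a limit of 3 counts, which is not the exact interval used for other shares. Before thinning, 28.9%, 30.9% and 48.0% of CD4 cells had one. NK markers summed to 1007, 663 and 1189 CPM in the CD4 gate, and their part in the Prf1 difference was not tested.

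The Foxp3 gate held Prf1 at 160, 257 and 275 CPM, with ratios of 1.61 (1.41 to 1.85) and 1.07 (0.997 to 1.15). The gates ordered by Prf1 as NK, NK-receptor T and CD8 in mono-IL-10 and Trikine, followed by CD4 and Foxp3 in mono-IL-10 and by Foxp3 and CD4 in Trikine. In the combination the CD4 gate stood above the CD8 gate. The highest gate exceeded the lowest by 14.7-fold, 10.3-fold and 8.95-fold.

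The mix of granzymes in a gate was given by the share of each gene in the summed UMIs of the 7 granzymes. In the CD8 gate Gzma made up 42.4%, 64.1% and 55.4% of granzyme UMIs and Gzmb 49.8%, 31.4% and 39.5%, so the leading granzyme was Gzmb in mono-IL-10 and Gzma in both other libraries. Foxp3 cells had a Gzma share of 8.51%, 40.3% and 34.8% and a Gzmb share of 84.8%, 57.5% and 63.4%. Foxp3 was the gate in which Gzmb led in all 3 libraries. Gzmk made up 11.1% of the CD4 mix in mono-IL-10, 2.01% in Trikine and 1.59% in the combination. Gzmc to Gzmf together never exceeded 1.64%.

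Relative to perforin, granzyme UMIs were more frequent in Trikine. In the CD8 gate there were 20.8, 47.1 and 42.4 granzyme UMIs per Prf1 UMI, and in the NK-receptor T gate 13.6, 45.2 and 23.5. The CD4 values were 13.5, 25.5 and 14.1, so the combination was near the mono-IL-10 value there. In the NK gate they were 7.96, 10.8 and 9.53. These counts depend on how well each transcript is captured and compare libraries, not genes.

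**Figure D4:**
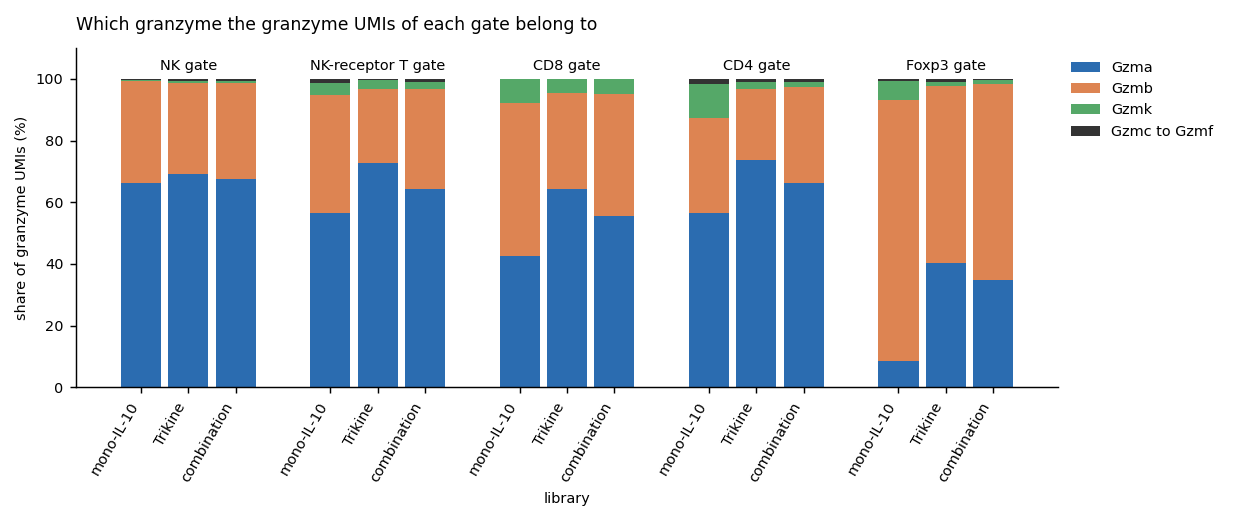
Stacked bars of the share of granzyme UMIs that belong to Gzma, Gzmb, Gzmk and the sum of Gzmc to Gzmf, in percent, for each gate and library. Gzmb takes most of the Foxp3 bars, from 84.8% in mono-IL-10 to 57.5% in Trikine, and Gzma takes most of the NK bars.

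Members were also counted cell by cell after thinning to 1000 UMIs. CD8 cells with none of the 7 granzymes made up 22.1%, 8.78% and 6.70% of the gate, and those with 3 of them 23.0%, 40.8% and 37.7%. Foxp3 cells with none made up 43.2%, 16.7% and 18.7%. CD4 cells with none made up 55.7%, 41.2% and 33.3%. The share of cells without granzyme UMIs was highest in mono-IL-10 in each of these gates. Part of the CD8 difference lay in the sub-cluster led by Igfbp4 and Dapl1, which held 504 mono-IL-10 CD8 cells, 89.8% of them without granzyme UMIs, but only 6 Trikine and 11 combination cells. In the rest of the CD8 gate the shares were 13.001%, 8.66% and 6.55%, and in the rest of the CD4 gate 51.2%, 41.1% and 33.3%.

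Pairs of members were read in the same thinned cells. In the CD8 gate Gzmb was found in 85.1%, 86.8% and 87.4% of cells with Gzma and in 42.3%, 42.1% and 59.4% of cells without it. Prf1 was found in 32.8%, 28.7% and 29.9% of CD8 cells with Gzmb and in 13.3%, 12.5% and 14.6% of those without. In the CD4 gate Prf1 was found in 21.1%, 19.4% and 30.6% of cells with Gzmb and in 8.80%, 6.99% and 12.9% of cells without it. Gzmb was found in 73.4%, 86.6% and 84.96% of CD8 cells with Gzmk and in 53.1%, 69.955% and 75.6% of those without. Its share was also higher with Gzmk in the NK-receptor T and CD4 gates of every library. In the Foxp3 gate the intervals overlapped in Trikine and the combination. Gzmk did not show this in NK cells, where Gzmb was found in 67.9%, 89.1% and 83.0% of cells with Gzmk. Without Gzmk the NK shares were 71.1%, 81.6% and 84.1%. The NK intervals overlapped, and only 28 mono-IL-10 NK cells had Gzmk. Shared free RNA and doublets can add to such pairs, and their part was not tested.

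CD8 cells were split by UMIs of Tcf7, a factor of stem-like T cells, and Havcr2, the inhibitory receptor TIM-3 of terminally differentiated cells. Cells with Tcf7 alone made up 33.8%, 21.0% and 19.6% of the gate and cells with Havcr2 alone 26.1%, 30.4% and 26.0%. Gzma in the Tcf7 cells was at 973, 4874 and 3279 CPM and in the Havcr2 cells at 6631, 13597 and 11914 CPM. The Trikine over mono-IL-10 ratio of Gzma was 5.01 (4.87 to 5.15) in the Tcf7 cells and 2.05 (2.03 to 2.07) in the Havcr2 cells. Of the mono-IL-10 cells with Tcf7 alone, 440 lay in the sub-cluster led by Igfbp4 and Dapl1, at 167 CPM of Gzma, against 5 Trikine and 8 combination cells. Among the other Tcf7 cells Gzma was at 1315, 4887 and 3304 CPM, a ratio of 3.72 (3.61 to 3.82). Gzma was thus higher in Trikine on both sides of the split.

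Havcr2 cells exceeded Tcf7 cells in Gzma by 6.82-fold, 2.79-fold and 3.63-fold in the mono-IL-10, Trikine and combination libraries. The same step for Gzmb was 8.59-fold, 5.20-fold and 4.45-fold, and for Prf1 5.92-fold, 4.13-fold and 3.80-fold. Gzmk stood apart with 1.48-fold, 1.72-fold and 1.27-fold. Within Havcr2 cells Prf1 was at 810, 521 and 582 CPM, a Trikine over mono-IL-10 ratio of 0.643 (0.624 to 0.663), and Gzmb at 8318, 7479.6 and 9242 CPM, a ratio of 0.899 (0.891 to 0.907). Prf1 in these cells was thus higher in mono-IL-10, while the Gzmb difference is no larger than the log2 shift of 0.14 to 0.16 that the other scalings give in the CD8 gate, and has no settled direction.

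**Figure D5:**
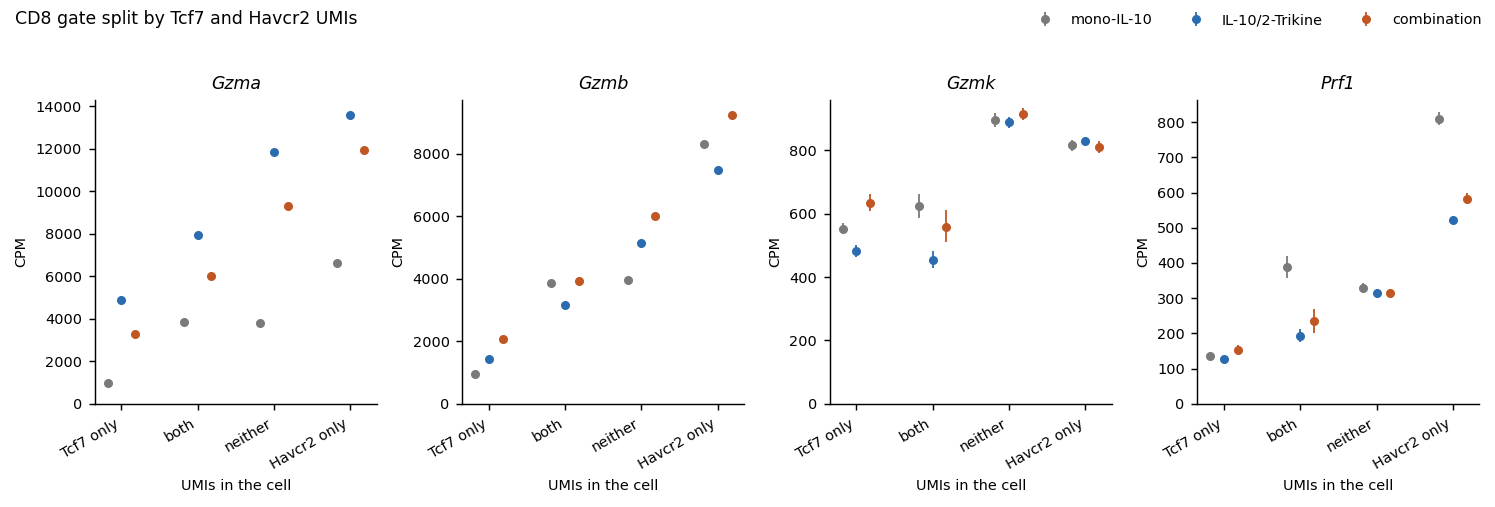
Level of 4 members in CD8 cells split by UMIs of Tcf7 and Havcr2, in CPM on linear axes that start at 0, with bars for 95% counting intervals. Gzma, Gzmb and Prf1 are lowest in cells with Tcf7 alone and highest in cells with Havcr2 alone in each library, and Gzmk is highest in cells with neither.

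CD4 cells were split by joint UMIs of Pdcd1, which encodes PD-1, and Icos, a costimulatory receptor. Cells with both made up 34.3%, 54.6% and 63.9% of the gate. Prf1 in them was at 320, 251 and 570.2 CPM, and in the other CD4 cells at 131, 137 and 319 CPM. The combination over Trikine ratio of Prf1 was 2.27 (2.18 to 2.36) and 2.32 (2.14 to 2.52), so it was past 2-fold on both sides. Gzmb in the cells with both was at 1116, 1127 and 2268 CPM, with a combination over Trikine ratio of 2.01 (1.98 to 2.05), and in the other CD4 cells at 727, 1611 and 2051 CPM, with a ratio of 1.27 (1.24 to 1.31). For Gzmb the Trikine over mono-IL-10 ratio was 1.01 (0.976 to 1.05) with both genes and 2.21 (2.13 to 2.31) in the other cells. By level, the other cells in mono-IL-10 lay below the Gzmb of B-cell-like cells given above. So did the cells with both genes in Trikine.

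Gzma in the CD4 cells with Pdcd1 and Icos was at 2650, 4145 and 4932 CPM, and in the other CD4 cells at 828, 3872 and 4197 CPM. The Trikine over mono-IL-10 ratio was 1.56 (1.53 to 1.60) and 4.68 (4.52 to 4.84). Gzma in B-cell-like and macrophage-like cells, which should lack it, was also higher in Trikine, as given above. The part of such background in these ratios was not tested. Gzmk was at 233, 98.7 and 105 CPM with both genes and at 405, 137 and 141 CPM in the other cells. Lower Gzmk in Trikine was thus seen in both groups of CD4 cells.

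The gates were also split into dividing cells, with a UMI of Mki67 or Top2a, and the rest. Gzma in the Foxp3 gate had a Trikine over mono-IL-10 ratio of 12.6 in dividing cells and 11.1 in the rest. Prf1 in the CD4 gate had a combination over Trikine ratio of 2.39 in dividing cells and 2.11 in the rest. Both differences were thus past 2-fold with and without dividing cells. In CD8 cells the Trikine over mono-IL-10 ratio of Gzma was 2.34 in dividing cells and 3.21 in the rest. Prf1 in CD8 cells was lower in Trikine among dividing cells, at a ratio of 0.663 (0.643 to 0.683), while the ratio in the rest was 1.002 (0.955 to 1.05).

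The granule machinery around the members was read from a list of 48 genes for packaging, movement, inhibition and transcription, 47 of which were measured. For Trikine over mono-IL-10, 1 of 44 counted genes was called higher and 5 lower in the NK gate, 0 and 7 of 44 in the NK-receptor T gate, 0 and 4 of 44 in the CD8 gate, 0 and 7 of 44 in the CD4 gate, and 0 and 4 of 42 in the Foxp3 gate. Over all counted genes 7.84%, 12.4%, 10.3%, 15.5% and 5.73% were called in either direction in these gates, and the list's shares lay near that in the NK-receptor T, CD8 and CD4 gates. The list's median log2 ratio was -0.25 in the NK, NK-receptor T and CD8 gates, -0.44 in the CD4 gate and -0.18 in the Foxp3 gate.

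Those lower in Trikine with at least 50 CPM were mostly regulators of transcription. In the CD4 gate Eomes, a T-box factor of cytotoxic and memory cells, was at 65.0 CPM in mono-IL-10 and 4.14 in Trikine, a ratio of 0.0637 (0.0495 to 0.0811). Tcf7 in that gate was at 247 and 55.2 CPM. In the CD8 gate Eomes was at 92.9 and 40.5 CPM, and Tcf7 at 167 and 79.5 CPM. The sub-cluster led by Igfbp4 and Dapl1 held 11.4% of CD4 and 11.9% of CD8 cells in mono-IL-10, but 0.147% and 0.134% in Trikine. Its part in these levels was not tested. In the NK gate Prdm1, Zeb2 and Bcl6 were at 57.2, 252 and 105 CPM in mono-IL-10 and at 15.9, 112 and 43.7 CPM in Trikine. The NK-receptor T gate added Lyst, needed for granule release, at 217 and 95.7 CPM, Stat5a at 85.2 and 35.4 CPM, and Stat5b at 182 and 88.4 CPM, both of which carry IL-2 signals. It also added Serpina3g, Eomes, Zeb2 and Bcl6, with ratios of 0.488, 0.405, 0.428 and 0.428. The sub-cluster led by Klra6 took 9.84% of this gate in mono-IL-10 and 59.0% in Trikine. The part of this makeup in the levels of the gate was not tested. Further CD4 genes were Igf2r, Lyst, Zeb2 and Bcl6, with ratios of 0.404, 0.375, 0.488 and 0.323, and in the Foxp3 gate Tcf7 was at 83.7 and 22.7 CPM.

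For the combination over Trikine, the list had 2 genes called higher and 0 lower in the NK gate, 1 and 0 in the NK-receptor T gate, 3 and 0 in the CD8 gate, 2 and 2 in the CD4 gate, and 1 and 0 in the Foxp3 gate. The shares over all counted genes were 3.46%, 4.55%, 5.46%, 4.61% and 2.21%, so the 1 to 3 called genes of each gate but CD4 were close to the background. The one with at least 50 CPM was Serpina3g, a serpin of activated T cells, in the CD8 gate, at 35.3 CPM in Trikine and 83.7 in the combination, a ratio of 2.37 (2.20 to 2.55). The list's median log2 ratio was 0.12, 0.28, 0.15, 0.32 and 0.06 in the 5 gates.

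Patterns were compared over 15 points, the 5 gates in 3 libraries, with Pearson's r of log2(CPM + 1) among 4574 genes. The points share libraries and depth, so r is a description. Genes most like Gzma were the NK receptor genes Klrc3 (0.947), Klrk1 (0.943) and Klrd1 (0.942). Those most like Prf1 were Padi2 (0.964), Tmed5 (0.960) and Gm33104 (0.958), and those most like Gzmk were Slc25a40 (0.913), Gtf2i (0.911) and Armc7 (0.894). Gzmb had lower values, with Selplg (0.870), Ptp4a3 (0.847) and Cerk (0.847).

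For Gzmc the nearest were Gcnt2 (0.871), Tm2d2 (0.870) and Hhex (0.833), and for Gzmf Cox17 (0.898), Eif3d (0.893) and Tsg101 (0.864). Gzmd was nearest to Evi2a (0.801), Ylpm1 (0.771) and Gosr2 (0.765), and Gzme to Evi2a (0.774), Tiprl (0.752) and Lactb (0.738). Among members, Gzmd and Gzme were nearly parallel, with r = 0.956, and whether their UMIs were shared in alignment was not examined. Gzma and Prf1 reached 0.721 and Gzma and Gzmb 0.661, while Gzmk had no r above 0.263 with another member.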

How the data were processed

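The authors deposited unnormalized UMI counts per gene and barcode for 1 library per group, made with Cell Ranger from a 3′ kit, introns included. The file header names version 8.0.0 and the labels build mm10, whereas the methods name another version and build, so no coordinates are attached to the counts. RefSeq tables gave the promoter windows.

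Cells were barcodes with 200 or more detected genes and a mitochondrial share of at most 20%. Total UMIs were 158570946, 197176873 and 175794959 in the mono-IL-10, Trikine and combination libraries, and 0 columns of per-sample values were left unused. Cells were clustered without the members (scanpy 1.11.5, 2000 variable genes, 30 principal components, 20 neighbors, Leiden resolution 1.0, leidenalg 0.10.2, seed 1), and clusters were named "-like" from at least 3 markers that passed 1.5-fold and 10% of cells. Gates were then set on cells of T or NK clusters, and cells with Trdc UMIs were left out of the T cell gates.

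UMIs were summed per gate and library and scaled to CPM (numpy 2.4.6, scipy 1.17.1, pandas 2.3.3, Python 3.11.15). With 1 library per group no test was run. Levels carry exact Poisson intervals, ratios exact conditional binomial intervals and shares Clopper-Pearson intervals. A call needed 2-fold and at least 20 UMIs in the pair. Values of these methods were checked on simulated counts. Scrublet's automatic threshold marked 2782, 0 and 0 cells and so did not work, and doublets were left in. The members and the gene lists were chosen with earlier results of these data known. Members, listed granule genes at 50 CPM or more past 2-fold, and the 3 genes most like each member are named. The alternatives concerned gates, filters, doublets, scaling, free RNA, cycling, single cells and sub-clusters. No untreated group or protein measurement was analysed here.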

Additional observations from a re-analysis of the deposited data

Results flagged for a closer look

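Some members were past 2-fold in one direction in a gate and past it in the other direction in another gate, or in one gate but not in another. These differences between gates were not tested, since each group has 1 library.

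For Trikine over mono-IL-10, Gzmk had a ratio of 2.52 in the NK gate and 0.339 in the CD4 gate, from 748 and 2056 UMIs in the Trikine library. The thinned share of mono-IL-10 NK cells with Gzmk, 4.73%, was at the background of neutrophil-like cells, 3.69%, and the calls held in 11 and 12 of 13 alternative settings. Gzmd had ratios of 3.04 in the CD8 gate (0.981 to 12.5, from 16 against 4 UMIs), 0.207 in the NK-receptor T gate and 0.235 in the CD4 gate. Gzme was at least 7.77-fold higher in the NK gate, with ratios of 0.301 in the NK-receptor T gate and 0.439 in the CD4 gate. The Gzmd calls held in 8, 9 and 13 of the 13 settings and the Gzme calls in 10, 8 and 10, and the NK ratio of Gzme was 0.867 with sub-clusters.

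For the combination over Trikine, Gzmd had ratios of 0.440 in the NK-receptor T gate and 4.30 in the CD4 gate. Gzme was at least 16.1-fold lower in the NK gate, with ratios of 0.219 in the NK-receptor T gate, 2.04 in the CD8 gate, 2.63 in the CD4 gate and 7.92 in the Foxp3 gate. Here the Gzmd calls held in 8 and 13 settings and the Gzme calls in 11, 10, 8, 12 and 11. The Gzmd and Gzme values rest on a few cells each, 57 of 59 combination UMIs of Gzme in CD8 cells on 1 cell.

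Outside the lymphocyte gates, cDC2-like cells, named from markers of conventional dendritic cells, held Gzmd at 1.94, 3.30 and 9.09 CPM in mono-IL-10, Trikine and the combination, from 23, 77 and 72 UMIs in 3, 9 and 5 cells. In the cluster of these cells 54.9% had a UMI of the T cell gene Cd3e, at a median depth of 12373 UMIs, and the part of T cell RNA in these values was not tested. Free RNA held it at 0.220, 1.29 and 2.46 CPM. Gzme in these cells was at 3.38, 5.96 and 23.98 CPM against 0.878, 3.65 and 5.91 CPM in free RNA. Mast cell or basophil-like cells numbered 8, 11 and 13 and held Gzmb at 2663, 5745 and 5139 CPM, against 1260, 2688 and 2898 CPM in free RNA. In the combination library 166 of the 253 Gzmb UMIs came from 1 of those cells.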

How the results depend on the processing

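No paired analysis was possible because each group has 1 library. Pairs called lower for Trikine over mono-IL-10 numbered 5, and 2 with lymphoid cells chosen by marker sum, 3 in cells without Mki67 and Top2a UMIs and 3 without the highest cell of each gene, a setting added after the data had been seen, as were leaving out the 10% highest doublet scores and leaving out the sub-clusters led by Dapl1, Klra6 and Zbtb16. Pairs called lower for the combination over Trikine numbered 5, and 2 with sub-clusters, 1 by marker sum, 2 with the mean of each cell's own CPM and 2 without Mki67 and Top2a UMIs. The counts of pairs called higher, 12 and 5, stayed within 1.5 times under all 13 settings, but the pairs behind them changed. Of the 17 and 10 calls in either direction, cells without Mki67 and Top2a UMIs kept 10 and 3, and sub-clusters kept 11 and 4. Directions of called pairs turned for Gzmd in the NK-receptor T gate by marker sum (1.54 for Trikine over mono-IL-10, 1.18 for the combination over Trikine), Gzmd in the CD8 gate with the mean of each cell's own CPM (0.999), Gzme in the NK gate with sub-clusters (0.867 for Trikine over mono-IL-10), Gzme in the CD8 gate without its highest cell (0.224 for the combination over Trikine), Gzmc in the Foxp3 gate without Mki67 and Top2a UMIs (1.73, the same ratio) and Gzmf in the Foxp3 gate with sub-clusters (3.74, the same ratio). Among pairs not called, the Gzmc ratio in the NK-receptor T gate, 1.87 for the combination over Trikine, was 0.298 without Mki67 and Top2a UMIs. Directions also turned where a library was left at 0 UMIs, for Trikine over mono-IL-10 in the NK-receptor T gate for Gzmd (22 against 0 UMIs) and Gzme (41 against 0) without the highest cell, and, from under 20 UMIs, for both with sub-clusters and without Mki67 and Top2a UMIs. Without Mki67 and Top2a UMIs, Gzmd (0 against 1 UMIs) and, for the combination over Trikine, Gzme (0 against 1) turned in the CD8 gate. Gzma stayed past 2-fold for Trikine over mono-IL-10 under all 13 settings in the CD8 gate (2.42 to 3.21), CD4 gate (2.13 to 3.31) and Foxp3 gate (2.92 to 15.3), but lost its call in the NK-receptor T gate without those sub-clusters (1.80). Gzmk in the CD4 gate lost its call by marker sum (0.569), Gzmk in the NK gate with sub-clusters (1.83) and without Mki67 and Top2a UMIs (1.90), Gzme in the CD4 gate for Trikine over mono-IL-10 with sub-clusters (0.718) and both other scalings (0.518 and 0.512), and Prf1 (1.61) and Gzme (1.78) in the CD4 gate theirs for the combination over Trikine with sub-clusters. The causes were not tested. Low counts limit the ratios of Gzmd, Gzme and Gzmf.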
